A study of Mus musculus with 17 samples.

Results

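The 6 loci described here, 8-qC5-2209, 9-qF4-150, 4-qD2.2-2182, 1-qC1.3-637, 6-qC3-2394 and 3-qA3-2052, are band-named piRNA loci of the mouse, called after their chromosome and cytogenetic band. They were chosen from the data, as loci with clearly more long RNA in both anti-MAEL immunoprecipitates than in the IgG one. They are 6 of 100 band-named loci and of 214 piRNA loci in all, and the tables hold 10 entries for them among 465 for all loci. Each locus is represented by the entry with the most counts.

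The loci were measured in 9 of the 17 libraries of the series, all made from testis of the 129SvJae mouse strain. Long RNA precipitated from wild-type testis with an antibody to MAEL (Maelstrom) was sequenced in 2 libraries, a and b, and long RNA precipitated with rabbit IgG in 1. Anti-MAEL RNA of 50 to 150 nt and of 15 to 50 nt was sequenced in 1 library each. Small RNA of 15 to 50 nt without precipitation came from 2 libraries of Mael-/- testis and 2 of wild-type testis. The other 8 libraries, of mRNA and ribosome footprints, hold 0 rows for piRNA loci. Long RNA was fragmented to 120 to 200 nt before sequencing. The sources used here give neither the age of the mice nor their number or pooling, and a p-value therefore measures the spread between libraries alone, which may be technical.

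PIWI-interacting RNAs (piRNAs) are small RNAs of germ cells that guide PIWI proteins to silence transposons and to cleave RNAs. Intergenic clusters are transcribed as long single-stranded precursors, which are cut and trimmed into piRNAs in cytoplasmic granules. In the mouse, a large burst of piRNAs from such clusters appears at the pachytene stage of meiosis. MAEL is a conserved protein of these granules, and male mice without it are sterile with a block in meiosis. In whole testis, fewer cells of a type and less RNA per cell cannot be told apart, and the markers of germ cell stages and the level of Mael itself were not analysed here.

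Library totals were 5747210 and 10863053 counts for anti-MAEL long RNA and 7785650 for IgG. With anti-MAEL, the size class of 50 to 150 nt held 68922710 counts and that of 15 to 50 nt 172728187. In small RNA they were 21884714 and 4831638 counts in Mael-/- testis and 44416966 and 7776989 in wild-type testis. Levels are given as CPM, the counts of a locus per 1000000 counts of these totals, and levels of different loci are compared per kilobase (kb) of the entry. Intervals given for single libraries are exact Poisson intervals at 95% confidence and cover counting error only. The libraries of a group differed beyond sampling noise, with a chi-square per degree of freedom of 12.02 in wild-type small RNA, 49.2 in Mael-/- small RNA and 51.5 in anti-MAEL long RNA.

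Together the 6 loci took 0.191% ± 0.0159 (SD, n = 2) of anti-MAEL long RNA counts and 0.0236% of IgG counts. Locus 8-qC5-2209, represented by an entry of 14448 nt, had 835 and 700 CPM in the anti-MAEL libraries, against 47.7 CPM (interval 42.9 to 52.8) in the IgG library. Both anti-MAEL values lay far above the IgG value, and their mean of 767 CPM was 16.1 times as high. Locus 9-qF4-150, with a 24797 nt entry, had 548 and 467 CPM in the anti-MAEL libraries, against 37.8 CPM (interval 33.6 to 42.3) in the IgG library, and its ratio was 13.4. These 2 loci stood apart from the other 4.

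Locus 4-qD2.2-2182 had 208 and 148 CPM with anti-MAEL against 34.3 CPM with IgG, a ratio of 5.19. At 6-qC3-2394 the values were 167 and 202 CPM in the anti-MAEL libraries, against 45.3 CPM for IgG, giving 4.08 as the ratio. Of the 2 anti-MAEL libraries, a was the higher at 4-qD2.2-2182, 8-qC5-2209 and 9-qF4-150, and b at the 3 other loci. Locus 3-qA3-2052 had 170 and 175 CPM with anti-MAEL against 44.2 CPM with IgG, a ratio of 3.90. The lowest ratio, 3.71, was at 1-qC1.3-637, with 93.3 and 104 CPM in the anti-MAEL libraries, against 26.6 CPM (interval 23.1 to 30.5) for IgG. Each anti-MAEL value lay above the single IgG value of its locus, which the choice of the loci fixed in advance.

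These values chose the loci and were not tested. All 6 loci were over 2-fold higher than IgG in both anti-MAEL libraries, as were 69 of the 100 band-named loci and 5.17% of the 15031 features with at least 30 counts in the 3 libraries. The set was not the top of a ranking by ratio. Among the 100 band-named loci, 8-qC5-2209 was 2nd and 9-qF4-150 5th by ratio, while 4-qD2.2-2182, 6-qC3-2394, 3-qA3-2052 and 1-qC1.3-637 were at ranks 35, 43, 47 and 51. As many as 45 band-named loci outside the set had a higher ratio than 1-qC1.3-637. On the log2 scale, with a pseudocount of 0.5 CPM, that locus had a ratio of 1.87, and the 3 loci just above it, 14-qA3-19970, 5-qG2-2301 and 15-qE1-1119, had 1.94, 1.91 and 1.91. The 3 just below it, 4-qC5-17839, 8-qE1-3748 and 7-qD1-19431, had 1.79, 1.78 and 1.71. The median log2 ratio was 2.19 over the 6 loci, 1.74 over the other 94 band-named loci, -0.03 over the 114 gene-named loci and -0.28 over the 15031 features.

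**Figure D1:**
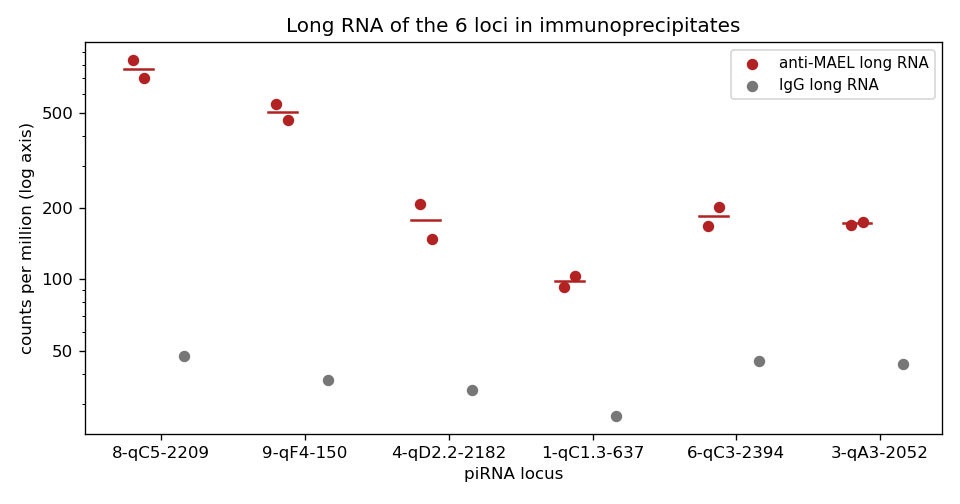
Long RNA of the 6 loci in CPM on a log axis, with 2 anti-MAEL libraries (points, bar at their mean) left of the single IgG library at each locus. Every anti-MAEL point lies above the IgG point of its locus, and 8-qC5-2209 and 9-qF4-150 lie highest with anti-MAEL, at means of 767 and 507 CPM.

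Per kilobase, the order of anti-MAEL long RNA among the loci differed from the order of ratios. Locus 8-qC5-2209 held 53.1 CPM per kb on average over both libraries. Next came 3-qA3-2052 with 25.6, 6-qC3-2394 with 22.7, 4-qD2.2-2182 with 21.3 and 9-qF4-150 with 20.5 CPM per kb. The libraries of 3-qA3-2052 held 25.2 and 25.9 CPM per kb, above both libraries of the next 3 loci. Those 3 overlapped each other, as at 4-qD2.2-2182 with 24.9 and 17.8 CPM per kb, so their order lay within the spread between libraries. Locus 1-qC1.3-637 was lowest at 8.03 CPM per kb. The other 94 band-named loci had a median of 22.2 CPM per kb of anti-MAEL long RNA, and the 6 loci had a median of 22.03.

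The next question was how much small RNA was counted at these loci and how it changed without MAEL. These libraries do not enter the anti-MAEL over IgG ratio by which the loci were chosen. Members were nevertheless chosen with earlier results of these data known, and 45 band-named loci with a higher ratio than 1-qC1.3-637 lie outside the set. The small RNA comparison is thus not known to be independent of the choice. In CPM, both Mael-/- libraries lay below both wild-type libraries at 5 of the 6 loci, a pattern shown by 6.11% of the 9906 features tested. At 9-qF4-150 both lay above them, a pattern shown by 66.5%. Over the other 94 band-named loci, the log2 ratio of Mael-/- over wild type in mean CPM had a median of -0.50 and was above 0 at 22. A lower level in Mael-/- was thus common in the class. Locus 3-qA3-2052 gave most, with 2239 and 1635 CPM in Mael-/- small RNA and 3469 and 3620 CPM in wild type. Both Mael-/- libraries lay below both wild-type libraries. Locus 6-qC3-2394 had 440 and 361 CPM in Mael-/- and 728 and 862 CPM in wild type, and 8-qC5-2209 had 488 and 385 CPM in Mael-/- and 657 and 689 CPM in wild type. Here too the genotypes did not overlap.

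Locus 4-qD2.2-2182 had 415 and 263 CPM in Mael-/- testis and 514 and 622 CPM in wild type. For 1-qC1.3-637 the levels were 133 and 97.3 CPM in Mael-/- and 181 and 199.7 CPM in wild type. In both loci each Mael-/- value was below each wild-type value, and Mael-/- library b was the lowest of the 4. Locus 9-qF4-150 went the other way in CPM, though not with the TMM scaling of the test, with 189.9 and 192.3 CPM in Mael-/- against 134 and 130.4 CPM in wild type. It was the scarcest of the 6 in wild type, and in Mael-/- it exceeded 1-qC1.3-637 in CPM but not per kb. Per kb the Mael-/- libraries held 7.66 and 7.75 CPM at 9-qF4-150, against 10.9 and 7.93 at 1-qC1.3-637.

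**Figure D2:**
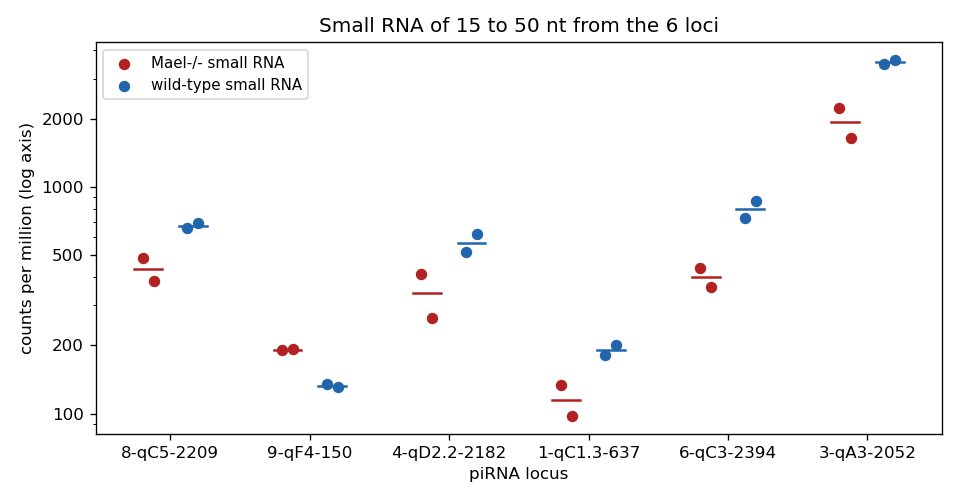
Small RNA of 15 to 50 nt at the 6 loci in CPM on a log axis, with 2 Mael-/- libraries left of 2 wild-type libraries at each locus and a bar at each mean. Mael-/- points lie below wild-type points at 5 loci and above them at 9-qF4-150, where the means are 191.1 CPM in Mael-/- and 132.4 CPM in wild type but the TMM-scaled log2 fold change is -0.66.

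The test was run over all 9906 features that passed the filter on low counts, which included all 6 loci. It used edgeR's quasi-likelihood test with Benjamini-Hochberg adjustment and TMM, a scaling that sets the bulk of features equal between libraries. Of the 6 loci, 1 was called lower and 0 higher, where 3.49% of all features were called lower and 3.82% higher in Mael-/-. At an unadjusted p under 0.05, 5 loci were lower, as were 12.3% of all features. Band-named loci as a class leaned the same way, with a median log2 fold change of -1.67 over the other 93 tested. The locus called lower was 6-qC3-2394, where edgeR gave a log2 fold change of -2.12, with an SE of 0.548 and an adjusted p = 0.0444.

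For 3-qA3-2052 the log2 fold change was -1.99 ± 0.610, for 1-qC1.3-637 -1.84 ± 0.522, for 4-qD2.2-2182 -1.83 ± 0.570 and for 8-qC5-2209 -1.76 ± 0.547 (SE). Their adjusted p-values of 0.0621, 0.0551, 0.0650 and 0.0645 (edgeR quasi-likelihood) missed the threshold of 0.05 narrowly, and their 95% intervals all lay below 0. The interval of 3-qA3-2052, for instance, ran from -3.33 to -0.65. Locus 9-qF4-150 had -0.66, with an SE of 0.471 (adjusted p = 0.365 by edgeR) and an interval of -1.69 to 0.38 that includes 0.

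The call at 6-qC3-2394 did not hold in every setting, though its log2 fold change stayed close to -2.12 in the 4 settings that follow. Without wild-type replicate a it was -2.10, with an SE of 1.36 (edgeR quasi-likelihood, adjusted p = 0.562), and without wild-type replicate b it was -2.21, with an SE of 1.17 (adjusted p = 0.338). With median-of-ratios size factors it was -2.22 (edgeR quasi-likelihood, adjusted p = 0.0648), and with no filter on low counts -2.11 (adjusted p = 0.187). The SE was larger in each than the 0.548 of the fit with all libraries. In other settings the estimate at 6-qC3-2394 moved. It was -0.98 with library totals and -0.48 with TMM over band-named loci alone. Without Mael-/- replicate a it was -3.04, and without Mael-/- replicate b -1.55. Without Mael-/- replicate a all 6 loci were called lower, as were 10.4% of all features and 88 of the other 93 band-named loci. Without Mael-/- replicate b 5 loci were called lower, as were 5.69% of features and 75 of the other 94 band-named loci. DESeq2 called 5 loci lower, all but 9-qF4-150, where it called 7.76% of 6003 features and 65 of the other 94 band-named loci lower.

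Scaling also set the sign at 1 locus. TMM and library totals differ by 1.27 on the log2 scale in the median of all features. With library totals the log2 fold changes of the 5 other loci were between -0.98 and -0.62, and 6-qC3-2394 and 3-qA3-2052 were called lower (edgeR quasi-likelihood, adjusted p = 0.0155 and 0.0201; 1.4% of features called lower). That of 9-qF4-150 was 0.53 ± 0.192 (SE; adjusted p = 0.0793). When band-named loci alone set the scale, it was 1.05 ± 0.290 and was called higher (edgeR quasi-likelihood, adjusted p = 0.0226; 39.4% of features called higher), and none of the 5 others was called. The estimate at 9-qF4-150 was thus below 0 relative to the bulk of features, and above 0 as a share of all counts or beside the other band-named loci.

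The class of band-named loci gives the scale for these values. The median log2 fold change with TMM was -1.83 over the 6 loci and -1.67 over the other 93 band-named loci tested. Of those 93 loci, 17 were called lower and 0 higher. Over the 114 gene-named loci the median was -0.02, with 15 called higher and 10 lower, and over all 9906 features it was 0.15. From the lowest upwards, 6-qC3-2394 stood at rank 19 of 99, 3-qA3-2052 at 24, 1-qC1.3-637 at 32, 4-qD2.2-2182 at 34 and 8-qC5-2209 at 44. Locus 9-qF4-150 was at rank 86, near the top of the class.

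Comparing libraries of the same letter, the log2 ratio of CPM at 6-qC3-2394 was -0.72 between the a libraries and -1.26 between the b libraries. At 8-qC5-2209 the ratios were -0.43 and -0.84, and at 4-qD2.2-2182 -0.31 and -1.24. The b pair showed the deeper fall at each of the 5 lower loci. At 9-qF4-150 both pairs were above 0, with 0.496 and 0.559. Mael-/- replicate b was the shallowest library and had the lowest share of counts in band-named loci, at 62.0% against 69.6% in Mael-/- replicate a and 79.4% and 78.6% in wild type, and the part of this share in the result was not tested.

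As a share of small RNA at band-named loci, the 6 loci held 0.561% and 0.473% in Mael-/- and 0.716% and 0.779% in wild type. Scaling between libraries does not enter this value. The Mael-/- shares were both lower, by a log2 ratio of -0.53. Most of this share belonged to 3-qA3-2052, with 57.3% and 55.7% of the counts of the 6 loci in Mael-/- and 61.04% and 59.1% in wild type. Locus 9-qF4-150 took 4.86% and 6.56% of them in Mael-/- and 2.37% and 2.13% in wild type.

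**Figure D3:**
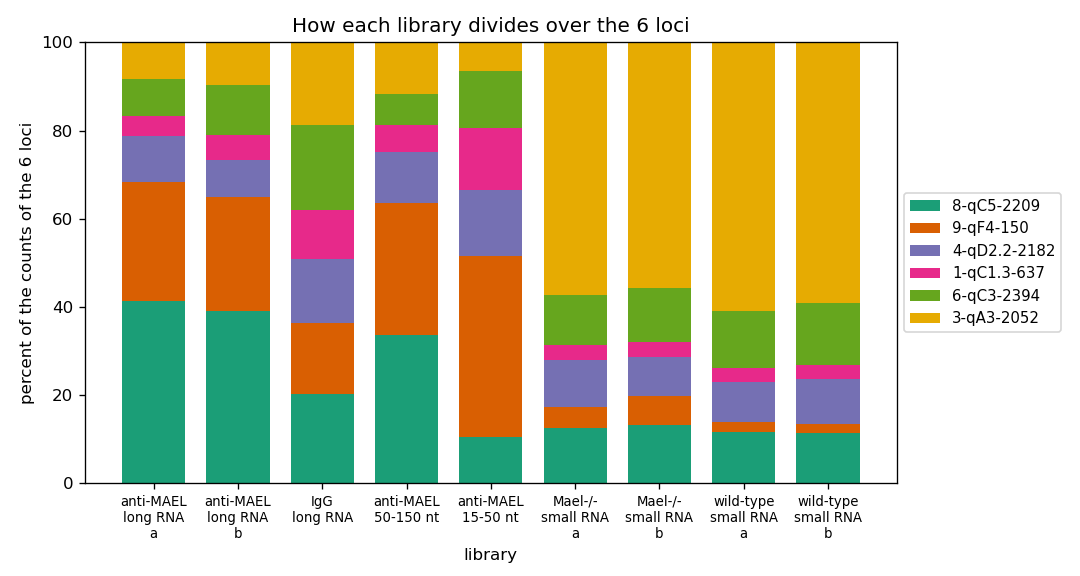
Stacked bars give the percent of the counts of the 6 loci that each locus took in each of the 9 libraries. Locus 3-qA3-2052 fills most of each bar of small RNA without precipitation (55.7% to 61.04%), while 8-qC5-2209 and 9-qF4-150 fill most of the anti-MAEL long RNA bars and 9-qF4-150 leads at 15 to 50 nt with anti-MAEL (41.03%).

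The amount of long RNA with anti-MAEL and the amount of small RNA were in very different proportion from locus to locus. Wild-type small RNA in CPM was 20.6 times the anti-MAEL long RNA in CPM at 3-qA3-2052, 4.30 times at 6-qC3-2394, 3.19 times at 4-qD2.2-2182 and 1.93 times at 1-qC1.3-637. At 8-qC5-2209 the ratio was 0.878, and at 9-qF4-150 it was 0.261. By this ratio 8-qC5-2209 ranked 91 and 9-qF4-150 99 of 100 band-named loci. The median log2 ratio was 1.31 over the 6 loci and 3.09 over the other 94. On average, band-named loci held 79.0% of wild-type small RNA counts and 5.65% of anti-MAEL long RNA counts. Each of these ratios of CPM carries that difference between the libraries.

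Per kilobase, wild-type small RNA spanned a wide range, from 5.34 CPM per kb at 9-qF4-150 and 15.5 at 1-qC1.3-637 to 526 CPM per kb at 3-qA3-2052. The 3 other loci lay between 46.6 and 97.7 CPM per kb. The median of the other 94 band-named loci was 178 CPM per kb, and 5 of the 6 loci lay below it. As a yardstick, 17-qA3.3-26735, the locus with the most wild-type small RNA, had 3235 CPM per kb, with 76.3 CPM per kb in anti-MAEL long RNA. Over all 100 band-named loci, Spearman's correlation of long RNA with anti-MAEL and wild-type small RNA, both per kb, was 0.357, given as a description because loci share libraries and locus lengths.

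Anti-MAEL RNA of 15 to 50 nt, a range that includes piRNAs, came from 1 library, with no IgG library of that size and no test. Read lengths within the range were not analysed. Immunoprecipitates also differ in kit or source from the small RNA libraries without precipitation. The part of this in the ratios below was not tested. The scarce small RNA locus 9-qF4-150 led there in CPM, though not per kb, with 1252 CPM (interval 1247 to 1258). In wild-type small RNA without precipitation it had 134 and 130.4 CPM. The anti-MAEL level was 9.46 times the wild-type mean, the 2nd highest such ratio among 100 band-named loci. Locus 1-qC1.3-637 had 426 CPM at 15 to 50 nt with anti-MAEL, 2.24 times its wild-type small RNA. These were the 2 loci with least small RNA per kb.

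At 4-qD2.2-2182 the level was 461 CPM with anti-MAEL, 0.812 times that of wild-type small RNA, and at 6-qC3-2394 it was 396 CPM, 0.498 times. Locus 8-qC5-2209 had 319 CPM, 0.474 times its wild-type level. Locus 3-qA3-2052, with most wild-type small RNA of the 6, had least in CPM with anti-MAEL, though not per kb. It had 197 CPM (interval 195 to 199.5) against 3469 and 3620 CPM in wild-type small RNA, a ratio of 0.0557. In CPM per kb the 6 loci spanned a narrower range at 15 to 50 nt with anti-MAEL than in wild-type small RNA, from 22.1 at 8-qC5-2209 to 55.3 at 4-qD2.2-2182. The median of the other 94 band-named loci was 73.6 CPM per kb. The median log2 ratio to wild-type small RNA was -0.65 over the 6 loci and -1.82 over the other 94. Taken as shares of band-named counts rather than of all counts, the median of the 6 loci was 1.20, because band-named loci held 21.9% of counts with anti-MAEL at 15 to 50 nt and 79.02% ± 0.539 (SD, n = 2) in wild-type small RNA.

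**Figure D4:**
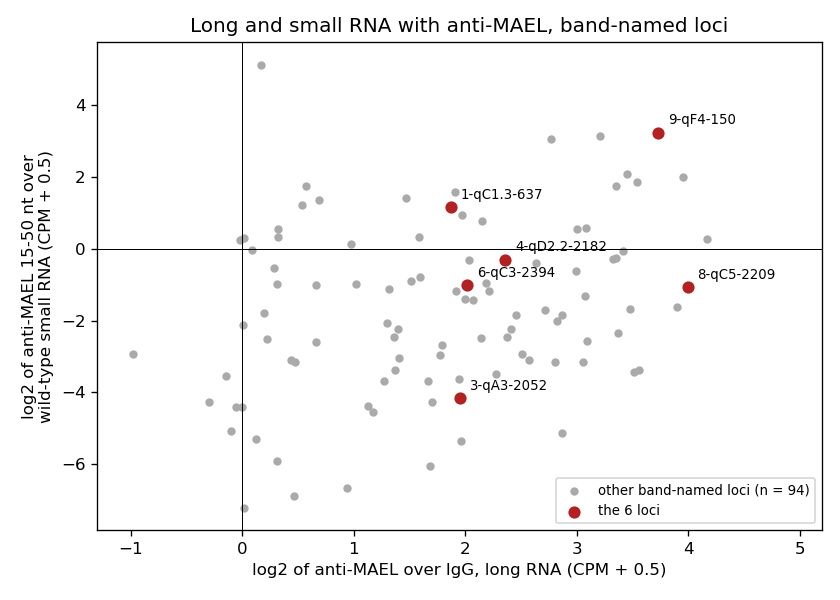
Each point is a band-named locus, with the log2 ratio of anti-MAEL over IgG in long RNA across and the log2 ratio of anti-MAEL 15 to 50 nt RNA over wild-type small RNA upwards. The 6 loci (red) range from 3-qA3-2052 at -4.16 to 9-qF4-150 at 3.24 on the vertical axis, among 94 other loci (grey).

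At 50 to 150 nt with anti-MAEL, also 1 library, 8-qC5-2209 and 9-qF4-150 were again the highest of the 6 in CPM and 1-qC1.3-637 the lowest, as in long RNA. Locus 8-qC5-2209 had 318 CPM (interval 313 to 322) and 9-qF4-150 had 285 CPM. The others had 112 CPM at 3-qA3-2052, 110.2 at 4-qD2.2-2182, 65.2 at 6-qC3-2394 and 58.7 at 1-qC1.3-637. Each of the 6 loci thus had fewer CPM in this size class than in long RNA with anti-MAEL, with log2 ratios between -1.50 and -0.62. The median log2 ratio was -0.79 over the 6 loci, -0.58 over the other 94 band-named loci, of which 30 were above 0, and -2.50 over all 15031 features, of which 1308 were above 0.

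Of the 6 loci, 4 have a short and a long entry in the tables, whose counts were set side by side after the data had been seen. The files do not say whether the short entry lies within the long one, nor how reads that match both were assigned. Where counts beyond the short entry are given, they are the difference of the 2 entries and hold only if it does. At 9-qF4-150 the short entry of 3009 nt, 12.1% of the length of the long one, held 91.5% and 87.9% as many counts as the long entry in anti-MAEL long RNA, against 52.7% in IgG long RNA. Its anti-MAEL level was 22.9 times its IgG level, a higher ratio than the 13.4 of the long entry. In long RNA the short entry thus held nearly as many counts as the long one with anti-MAEL, and a smaller share with IgG. At 50 to 150 nt with anti-MAEL it held 75.8%, and at 15 to 50 nt with anti-MAEL 59.0%, close to its share in wild-type small RNA.

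In small RNA the short entry of 9-qF4-150 held 73.3% and 75.8% as many counts as the long entry in Mael-/- testis and 59.2% and 59.3% in wild type. The genotypes did not overlap, but with 2 libraries a genotype an exact two-sided permutation test cannot go below 0.333. The short entry had 142.5 ± 4.58 CPM in Mael-/- and 78.5 ± 1.68 CPM in wild type (SD, n = 2 each). The counts of the long entry beyond those of the short one came to 48.6 ± 2.87 CPM in Mael-/- and 53.96 ± 1.21 CPM in wild type. The CPM of the short entry was the higher in Mael-/- testis, and that of the remainder was the higher in wild type. In the fit over all features the short entry had a log2 fold change of -0.33 (edgeR quasi-likelihood, adjusted p = 0.645), which did not pass the test.

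At 6-qC3-2394 small RNA without precipitation and RNA with anti-MAEL were split differently between the entries. The short entry of 4854 nt, 59.6% of the length of the long one, held 91.4% and 91.0% as many counts as the long entry in Mael-/- small RNA and 96.7% and 96.9% in wild-type small RNA. In anti-MAEL long RNA it held 47.0% and 39.3%, against 78.8% in IgG long RNA, and at 15 to 50 nt with anti-MAEL 17.3%. The short entry thus took nearly all of the small RNA without precipitation, but less of the RNA with anti-MAEL than its share of the length.

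Beyond the short entry of 6-qC3-2394 there were 88.7 and 123 CPM in anti-MAEL long RNA, against 9.63 CPM in IgG long RNA. On the short entry the anti-MAEL mean was 2.22 times the IgG level. RNA of 15 to 50 nt with anti-MAEL was 0.0889 times wild-type small RNA on the short entry, against 0.498 on the long one. Ratios given above for this locus are of the long entry and describe neither part alone. At 15 to 50 nt with anti-MAEL, 328 CPM lay beyond the short entry, against 24.4 and 26.4 CPM in wild-type small RNA. In Mael-/- small RNA 37.9 and 32.5 CPM lay there, above both wild-type values, while the short entry averaged 366 ± 52.4 CPM in Mael-/- and 769.9 ± 93.6 CPM in wild type (SD, n = 2 each). Set in place of the long one in the fit, the short entry was called lower, with a log2 fold change of -2.20 (edgeR quasi-likelihood, adjusted p = 0.0396). The difference between the parts was not tested.

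**Figure D5:**
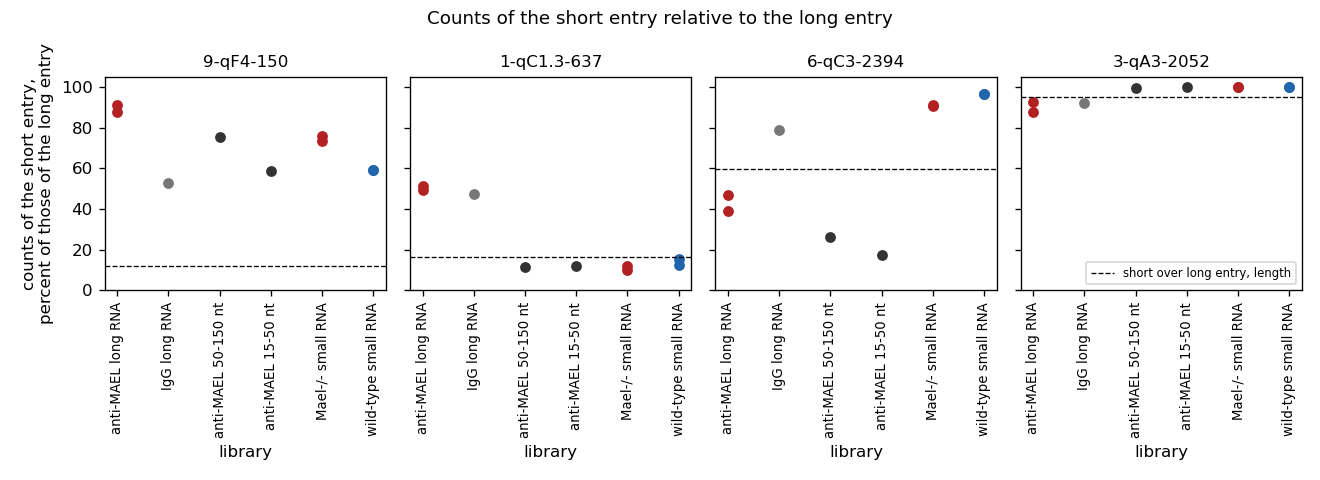
For the 4 loci with a short and a long entry, points give the counts of the short entry in percent of those of the long entry in each library, with 2 points where a group has 2 libraries. Dashed lines give the percent of the length. At 6-qC3-2394 small RNA (91.0% to 96.9%) lies above the line and RNA with anti-MAEL (17.3% to 47.0%) below it.

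At 1-qC1.3-637 the contrast was between long RNA and the smaller size classes, whose libraries keep strand while those of long RNA do not. Size and library type cannot be told apart. The short entry of 2023 nt, 16.5% of the length of the long one, held 51.3% and 49.3% as many counts as the long entry in anti-MAEL long RNA and 47.3% in IgG long RNA. At 50 to 150 nt with anti-MAEL it held 11.5%. At 15 to 50 nt it held 11.9% with anti-MAEL, 10.1% and 11.7% in Mael-/- and 15.1% and 12.6% in wild type. The short entry thus held more than its share of the length in long RNA with either antibody. In every library of smaller RNA it held less. Its log2 fold change in small RNA was -2.22, and it was called lower in place of the long entry (edgeR quasi-likelihood, adjusted p = 0.0229). At 3-qA3-2052 the entries differ by little, with 6403 and 6737 nt, and the short one held 99.95% to 99.98% as many counts as the long one in the 4 small RNA libraries, but 92.8% and 88.0% in anti-MAEL long RNA and 92.4% in IgG long RNA.

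Each locus was also matched to the band-named locus outside the set with the most similar profile over the 9 libraries, by the root mean square difference of mean-centred log2 CPM. Locus 9-qF4-150 was nearest to 6-qD1-2831, at 0.389 against a median of 2.29 to all 94 loci. At 6-qD1-2831, RNA of 15 to 50 nt with anti-MAEL was 8.29 times wild-type small RNA. Its log2 ratio of Mael-/- over wild-type small RNA in CPM was -0.02, against 0.53 at 9-qF4-150. Both ratios use libraries that entered the matching. Locus 4-qD2.2-2182 was nearest to 10-qB5.1-5404 (0.347), 6-qC3-2394 to 5-qG2-950 (0.412), 3-qA3-2052 to 18-qE1-36451 (0.438) and 1-qC1.3-637 to 14-qA3-3095 (0.476). The nearest to 8-qC5-2209 was 7-qD1-654 at 0.769, the least close match of the 6. Over all 100 band-named loci, Spearman's correlation between the log2 ratio of anti-MAEL over IgG and the log2 ratio of Mael-/- over wild-type small RNA in CPM was 0.337, again only a description.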

How the data were processed

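The authors deposited counts per feature, not normalized, and the entry's length, per the file headers. Build mm9 and the tools TopHat2 2.0.7, Bowtie2 2.0.6 and CASAVA 1.8 are named in the submitters' processing notes, without roles. Per the labels' protocols, long-RNA libraries do not keep strand and those of 15 to 50 and 50 to 150 nt do. The sources used here do not state how shared reads were assigned, nor whether counting used strand, which leaves overlapping features uncertain.

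Small RNA of Mael-/- and wild type (2 libraries each) was tested with edgeR 4.0.16 in R 4.3.3, with TMM, filterByExpr and an adjusted p of 0.05. DESeq2 1.42.0 and other scalings were alternatives, and the fit was tested on simulated data. There it called 19% of features changed 4-fold and 0% of those changed 2-fold, with 0 false calls. A locus left uncalled is therefore not shown to be unchanged. Anti-MAEL over IgG chose the loci and was not tested. Ratios and figures were made in Python 3.11.15 (pandas 2.3.3, scipy 1.17.1, numpy 2.4.6, matplotlib 3.10.9). Log2 ratios of CPM used a pseudocount of 0.5. Besides the 6 loci, those named are the 3 ranked on each side of the lowest, the nearest profiles and the locus with the most small RNA. Members and lists were chosen with earlier results of these data known. Lists of marker and piRNA pathway genes were not used, because transcript IDs matched 0 symbols. Coordinates and sequences of the loci are not used here.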

Additional observations from a re-analysis of the deposited data

How the results depend on the processing

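Of the 6 loci, 1 was called in small RNA. That count was 2 with library totals, 0 with size factors, 5 with DESeq2 and 0 with no filter. It was 2 with the other entry of each locus, an alternative chosen after seeing the data. Features called lower were 139 of 9906 with library totals, 347 of 9906 with size factors and 466 of 6003 with DESeq2. They were 248 of 24188 with no filter and 349 of 9906 with the other entry. Over all 9906 features 724 were called in either direction, against 2588 with library totals and 3966 when band-named loci set the scale. With no filter 481 of 24188 were called. Leaving out 1 library gave 0 to 6 loci and 78 to 1890 features (0 loci without either wild-type library, 78 features without wild-type replicate a and 332 without b, and 1463 and 1890, with 1067 and 672 lower, without Mael-/- replicate a and b), with the lone library assumed to vary like the others. With the letter as a replicate block all 6 loci were called lower, as were 73 of the other 93 band-named loci, among 4072 features called (1754 lower). Deviations of same-letter libraries correlated at 0.739, but the letters are not stated to mark a shared animal or day and there are only 2 pairs. At 9-qF4-150 the log2 fold change turned to 0.53 with library totals and 1.05 when band-named loci set the scale. The median anti-MAEL over IgG ratio of 2.19 was 2.55 with TMM and 2.07 with a pseudocount of 5 CPM. With shares of band-named counts, the median of anti-MAEL 15 to 50 nt over wild-type small RNA, -0.65, turned to 1.20, with 0.77 at 8-qC5-2209, 1.55 at 4-qD2.2-2182 and 0.84 at 6-qC3-2394, and the 50 to 150 nt share of 0.0948% of all counts was 1.66% of band-named counts. The median of small RNA per anti-MAEL long RNA, 1.31, was 1.69 with IgG subtracted. The share of band-named counts kept its direction in each alternative. The single IgG library gives no measure of its own spread.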
